A study of Sus scrofa with 8 samples.

Results

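The 3' untranslated region (3' UTR) is the stretch of an mRNA after the stop codon. m6A peaks that the deposited lists place in it were collected from pig muscle labelled LDM. All peaks labelled 3' UTR were taken in genes with at most 3 peaks in each list that holds the gene. Overlapping or directly adjoining peaks on a transcript were merged over the animals into sites. This gave 1903 sites in 1585 genes, of 8649 sites of every annotated part in 5132 genes, and 5650 genes had a peak in all. The animals were 2 Jinhua males, of a Chinese breed with more intramuscular fat, and 2 Landrace males, of a Danish breed, all aged 180 days. No treatment, transgene or pooling of animals is named in the labels. The 8 samples are an immunoprecipitated (IP) library and an input library of each animal, in the groups Jinhua IP, Jinhua input, Landrace IP and Landrace input, with 2 samples each. The authors deposited 1 peak list per animal. Positions below are bases counted from 1 at the start of the Ensembl transcript named with each gene.

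N6-methyladenosine (m6A) is the most abundant internal modification of mRNA. It is written by a METTL3 and METTL14 complex, erased by FTO and ALKBH5, and read by YTH-domain proteins such as YTHDF1. In mammals it is known to gather around stop codons and in 3' UTRs, where readers that affect mRNA decay and translation can meet it. The series set out to learn about m6A in intramuscular fat.

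The lists hold positions without reads, enrichment or p-values. Depth is unknown, and a site without a peak may lie in a transcript that was weakly expressed or thinly covered. In bulk muscle, fewer cells of a type and less RNA per cell cannot be told apart. Of 15 skeletal muscle markers, 12 had a peak in each of the 4 lists. Of the other cell types, 3 of 7 adipocyte, 3 of 5 endothelial, 3 of 5 macrophage and 5 of 6 fibroblast markers had a peak in at least 1 list. Fibroblast markers with a peak numbered 4 and 4 in the Jinhua lists against 3 and 2 in the Landrace lists, and adipocyte markers 3 and 3 in Jinhua against 3 and 2 in Landrace. Macrophage markers numbered 2 and 2 in Jinhua against 3 and 3 in Landrace, endothelial ones 3 in each list, and their part in the results was not tested. Marker genes with a 3' UTR site were CKM and DES for muscle, CIDEC and LIPE for adipocytes, KDR for endothelium and C1QC for macrophages. MTCH2, the gene in the series title, had 3 peaks over the 4 lists and 0 in the 3' UTR.

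What a 3' UTR label means could be read from the lists. In 916 genes that held both kinds of peak, a coding peak never ended at or after the end of a 3' UTR peak. By starts, 67 of these genes had a coding peak at or after a 3' UTR peak, and by centres 11 did. The labels thus followed the order of peak ends, and a peak that straddles a stop codon can carry it. Of 2490 3' UTR peaks in genes that also had a coding peak, 319 started at or before the end of the last coding peak. A peak of another part overlapped or adjoined 199 of the 1903 sites (10.5%). In the 728 genes where the first 3' UTR site began after the last coding peak, the median gap was 619 bases and the widest 5658.

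The 2 Jinhua lists held more 3' UTR peaks than the 2 Landrace lists, but their share of all peaks did not part the breeds. Jinhua 1 had 1183 and Jinhua 2 had 1223 of these peaks, against 973 in Landrace 1 and 993 in Landrace 2. On average 1203 ± 28.3 peaks were held by a Jinhua list and 983 ± 14.1 by a Landrace list (SD, n = 2 each). The groups did not overlap, and the difference of 220 peaks had an exact two-sided permutation p of 0.333, the smallest that 2 animals against 2 can give. The share labelled 3' UTR was 25.2% in Jinhua 1 (95% Wilson interval 24.0% to 26.5%) and 21.4% in Jinhua 2 (20.3% to 22.5%). It was 21% in Landrace 1 (19.9% to 22.2%) and 22.4% in Landrace 2 (21.2% to 23.7%). Jinhua 1 alone stood above the rest, and Jinhua 2 lay between the Landrace lists. The mean share was 23.3% ± 2.73 in Jinhua and 21.7% ± 0.999 in Landrace, a difference of 1.58 percentage points (exact permutation p = 0.667, n = 2 each). Without Jinhua 1 it was -0.355 points. The intervals cover counting of peaks only.

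**Figure D1:**
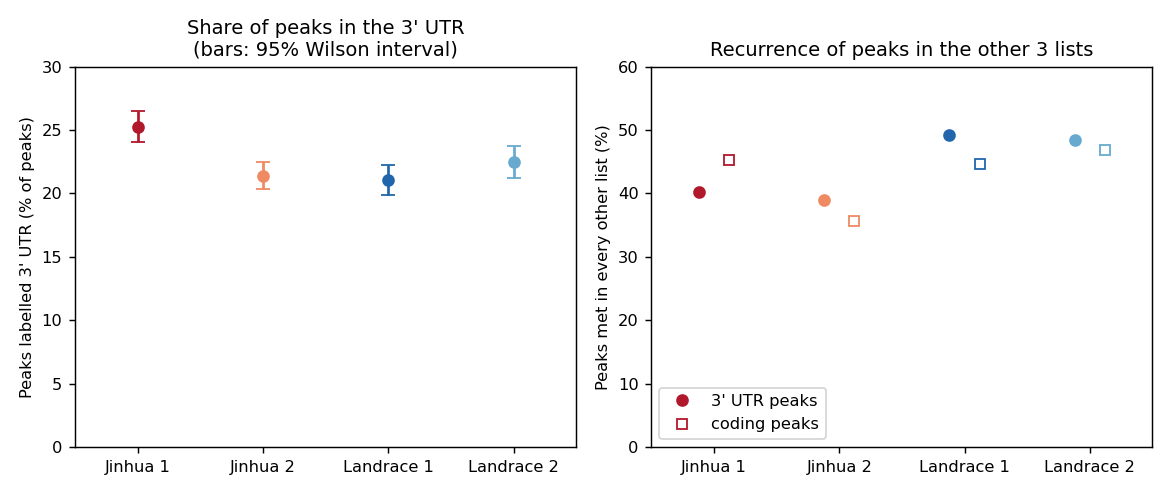
Left, share of each animal's peaks that are labelled 3' UTR, in percent, with 95% Wilson intervals. Right, percent of an animal's 3' UTR peaks (filled) and coding peaks (open) met in every other list. A peak is met where it overlaps or adjoins a peak of the same part there. 3' UTR peaks lie below coding peaks in Jinhua 1 and above them in the other 3 animals.

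Recurrence of 3' UTR and coding peaks in the other animals did not differ beyond the spread between animals. A peak recurred where it overlapped or adjoined a peak of the same part in every other list. Of 3' UTR peaks, 40.2% recurred in Jinhua 1 and 39.0% in Jinhua 2, against 45.3% and 35.6% of coding peaks. The 3' UTR values were 49.2% in Landrace 1 and 48.4% in Landrace 2, against 44.7% and 46.8% for coding peaks. 3' UTR peaks recurred more often than coding peaks in 3 of the 4 animals and less often in Jinhua 1. The mean difference was 1.12 percentage points (exact sign-flip permutation p = 0.75 over 4 animals, where the smallest p is 0.125). Median peak widths were 160, 157, 156 and 156 bases for 3' UTR peaks in Jinhua 1, Jinhua 2, Landrace 1 and Landrace 2, against 157, 156, 156 and 156 for coding peaks, a mean difference of 1 base (exact sign-flip permutation p = 0.5). Leaving out genes with more than 2 or more than 1 peak turned the recurrence difference to -0.927 and -2.41 points. The width difference was then 1.75 and 3.5 bases (exact sign-flip permutation p = 0.125 in each, the smallest possible).

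Over the 1903 sites, 465 had a peak in all 4 animals, 287 in 3, 369 in 2 and 782 in 1. The sites in all 4 lists were 24.4% of 3' UTR sites, beside 23.5% of coding sites, 18.1% of 5' UTR sites and 23.3% of sites of every part. Among the 287 sites of 3 lists, the missing list was Jinhua 1 in 35, Jinhua 2 in 74, Landrace 1 in 104 and Landrace 2 in 74. Jinhua 2 held most sites found in 1 list alone, 303 (25.5% of its sites), and Jinhua 1 held 207 (17.9%), against 141 (15%) in Landrace 1 and 131 (13.7%) in Landrace 2. The Jaccard overlap in bases was 0.429 between the Jinhua animals and 0.440 between the Landrace animals, and 0.355 to 0.439 in the 4 pairs of different breeds. Same-breed pairs averaged 0.435 and other pairs 0.393, a difference of 0.0417 (exact one-sided permutation p = 0.333, the smallest that 4 animals allow).

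**Figure D2:**
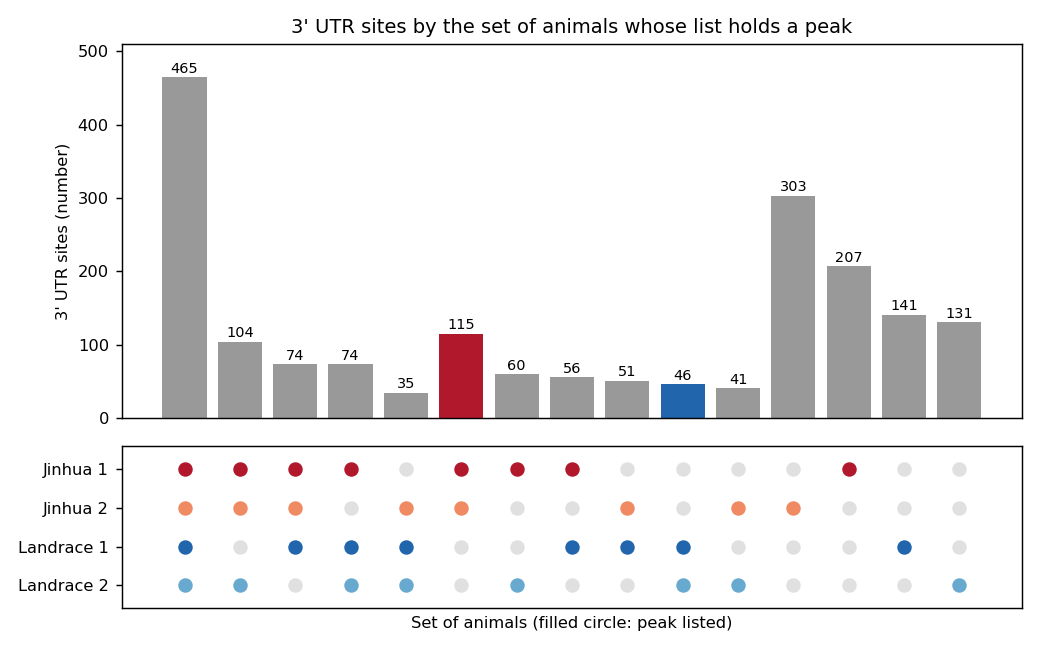
Number of 3' UTR sites (bars) for each set of animals whose list holds a peak there (filled circles below). The tallest bar is the 465 sites of all 4 lists; 115 sites had a peak in both Jinhua lists and no Landrace list (red) and 46 in both Landrace lists and no Jinhua list (blue).

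The sites common to all 4 animals were tightly placed. Their peaks shared a median of 148 bases within sites of a median 200 bases, and 402 of the 465 (86.5%) shared 100 bases or more. The centres of the 4 lists lay within 50 bases of each other at 354 sites (76.1%). At 5 sites no base was common to all lists although the peaks joined into 1 run. Ranges given for an animal run from its first to its last base in the site, and at 67 of the 1903 sites an animal had more than 1 peak. Among the genes, 115 had a single site in all, a 3' UTR site of all 4 lists.

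PLOD1, PXDN and EXT2, enzymes that act on matrix components, were among the genes of the 15 sites with most bases in common. PLOD1 (ENSSSCT00000003811), a lysyl hydroxylase of collagen, had peaks over bases 2380 to 2812 in Jinhua 1, 2381 to 2772 in Jinhua 2, 2377 to 2815 in Landrace 1 and 2380 to 2782 in Landrace 2. The 4 shared 392 bases, more than at any other site with a gene symbol. PXDN (ENSSSCT00000022979), a peroxidase that cross-links collagen IV, had them over 4983 to 5306 and 5015 to 5301 in Jinhua, and 4956 to 5341 and 5006 to 5342 in Landrace. EXT2 (ENSSSCT00000014505), a heparan sulfate polymerase, had a peak from 2379 to 2688 and 2402 to 2693 in Jinhua, and from 2376 to 2690 and 2380 to 2687 in Landrace. At both genes the animals' peaks ended within 41 bases or fewer of each other.

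CTSB (ENSSSCT00000026923), the lysosomal protease cathepsin B, was covered from 1298 to 1652 in Jinhua 1, 1284 to 1652 in Jinhua 2, 1289 to 1652 in Landrace 1 and 1285 to 1653 in Landrace 2, by 2 adjoining peaks in each animal. The far ends agreed within 1 base. PHKG1 (ENSSSCT00000008491), the catalytic subunit of muscle phosphorylase kinase, was covered from 1173 to 1512 and 1174 to 1515 in Jinhua, and from 1190 to 1512 and 1187 to 1509 in Landrace, with 320 shared bases. NXN (ENSSSCT00000022331), the redox protein nucleoredoxin, was covered from 1130 to 1487 and 1106 to 1486 in Jinhua, and 1130 to 1481 and 1130 to 1480 in Landrace. ECHDC3 (ENSSSCT00000012169), an enoyl-CoA hydratase domain protein, had one of the longest sites, 550 bases, in which Jinhua 2 and Landrace 1 each left a gap between peaks. The remaining genes of the 15 were FAM129A, AGAP3, GADD45G, TMEM9B, DGKZ, CTDNEP1, NPR1 and B4GALT5, with 246 to 317 shared bases.

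**Figure D3:**
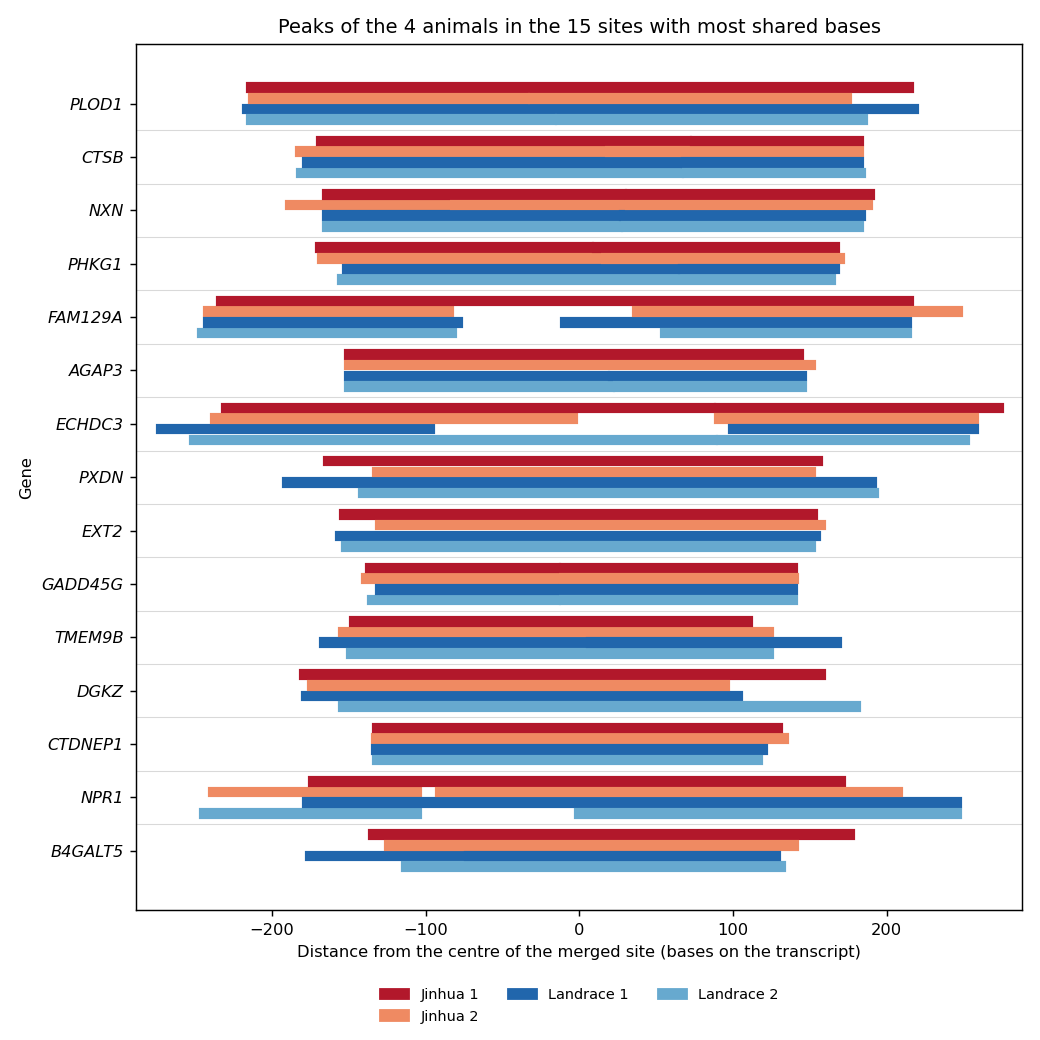
Peaks of Jinhua 1, Jinhua 2, Landrace 1 and Landrace 2, from top to bottom in each gene, at the 15 sites of all 4 lists with most shared bases; the x axis is distance from the centre of the merged site in transcript bases. Ends line up closely in CTSB and CTDNEP1, and lists split the site into separate peaks in FAM129A, ECHDC3 and NPR1.

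At some sites the 4 lists differed by 1 or 2 bases. SLC25A3 (ENSSSCT00000000970), the mitochondrial phosphate carrier, had 1070 to 1225 in both Jinhua lists, and 1069 to 1225 in both Landrace lists. TMEM189 (ENSSSCT00000026441) started at base 1392 in all 4 lists and ended at 1547 in Jinhua 1 and 1545 in the other 3. Peak starts coincided in all 4 lists for AGAP3, ART1, LZTR1, RAC1 and TMEM189, and differed by 1 base for ADIPOR2, an adiponectin receptor. The widest spread of site starts was 367 bases, in CDK10, where 2 animals had a further peak upstream, from 1398 to 1706 in Jinhua 1 and 1381 to 1590 in Landrace 1. The downstream CDK10 peaks began at 1707 and 1728 in Jinhua, and at 1748 in both Landrace animals.

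Peaks of the 4 animals often ended at slightly different bases. Where ends parted the breeds, the Jinhua ends mostly lay farther along the transcript, but at 255 of the 465 sites of all lists they did not part them. At the 465 sites of all lists, with the last base of an animal's peaks in the site as its end, both Jinhua ends lay past both Landrace ends in 167 (35.9%) and before them in 43 (9.25%). Coding sites had 504 (35.9%) and 101 (7.2%) of 1403. Starts parted less, with both Jinhua starts past both Landrace starts at 107 3' UTR sites (23%) and before them at 78 (16.8%), beside 25.4% and 11.4% of coding sites. The median deviation of an end from its site's mean was 3.75 bases in Jinhua 1 and 1.0 in Jinhua 2, against -3.5 in Landrace 1 and -0.5 in Landrace 2. The difference of 4.38 bases between breeds had an exact two-sided permutation p of 0.333 (n = 2 each), the smallest possible, and its part in the 3' UTR label was not tested. This comparison was chosen after the positions had been seen.

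Few sites were listed for both pigs of a breed and for no pig of the other. Jinhua-only sites numbered 115 in 112 genes, 6.04% of 3' UTR sites, beside 6.02% of coding, 3.48% of 5' UTR and 5.82% of all sites. Landrace-only sites numbered 46 in 46 genes, 2.42% of 3' UTR sites, beside 3.52% of coding, 4.74% of 5' UTR and 3.41% of all sites. The Jinhua lists were also longer, with 1155 and 1188 sites against 942 and 956 in the Landrace lists, and the part of list length in these counts was not tested. Of the Jinhua-only sites, 55 (47.8%) lay in genes with no peak in either Landrace list, and 33 (28.7%) in genes called in both. Of the Landrace-only sites, 14 (30.4%) lay in genes with no Jinhua peak and 24 (52.2%) in genes called in both Jinhua lists. Those 33 and 24 sites are by definition the ones in genes called in all 4 animals, a limit chosen after the data had been seen. No gene had a Jinhua-only and a Landrace-only 3' UTR site. Leaving out 1 animal gave 189 to 423 Jinhua-only and 82 to 187 Landrace-only sites, because fewer lists then have to meet the definition.

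Several of these breed-only sites lay under a coding peak of the other breed. Of the 115 Jinhua-only sites, 18 were overlapped or adjoined by a Landrace peak of another part, 11 of them in both Landrace lists. Of the 46 Landrace-only sites, 6 were overlapped or adjoined by such a Jinhua peak, 5 of them in both lists. TP53INP2 (ENSSSCT00000025489), an autophagy regulator in muscle, had 3' UTR peaks from 735 to 990 and 732 to 990 in Jinhua, and coding peaks from 730 to 930 and 747 to 950 in Landrace. Starts differed by 17 bases at most and all Jinhua ends lay past the Landrace ends. SGK1 (ENSSSCT00000027054), a kinase induced by serum and glucocorticoids, had 3' UTR peaks from 1172 to 1396 and 1200 to 1397 in Jinhua, and coding peaks from 1183 to 1339 and 1181 to 1330 in Landrace. IDH3G (ENSSSCT00000013975), a subunit of mitochondrial isocitrate dehydrogenase, had 1071 to 1283 and 1060 to 1281 in Jinhua, and coding peaks from 1058 to 1234 and 1058 to 1227 in Landrace. The same arrangement held at COLGALT1, DBNDD2 and GTF2E2. MOCS1, an enzyme of molybdenum cofactor synthesis, had 3' UTR peaks from 1831 to 2026 and 1737 to 2025 in Jinhua, overlapped in Landrace 2 alone by a coding peak from 1851 to 1950. DDIT4L, an inhibitor of mTORC1, had them from 606 to 1021 and 831 to 1036 in Jinhua, with coding peaks from 606 to 830 in Jinhua 2 and 606 to 829 in Landrace 1.

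The reverse arrangement held for Landrace-only labels. XRCC6 (ENSSSCT00000000065), the Ku70 subunit of DNA repair, had coding peaks from 1657 to 1854 and 1645 to 1820 in Jinhua and 3' UTR peaks from 1654 to 1858 and 1695 to 1865 in Landrace. In Jinhua 1 the XRCC6 peak thus ended 4 bases before that of Landrace 1 and carried the other label. AGPAT2 (ENSSSCT00000006407), an acyltransferase of triglyceride synthesis, had coding peaks from 451 to 649 and 435 to 627 in Jinhua, and 3' UTR peaks from 511 to 660 and 521 to 658 in Landrace. CEBPD (ENSSSCT00000006875), a transcription factor of early adipocyte differentiation, had Landrace 3' UTR peaks from 711 to 810 in both animals, and coding peaks that ended at 740 and 722 in Jinhua. At these genes all 4 lists held a peak in the region, under different labels, and so it was at TMEM214.

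**Figure D4:**
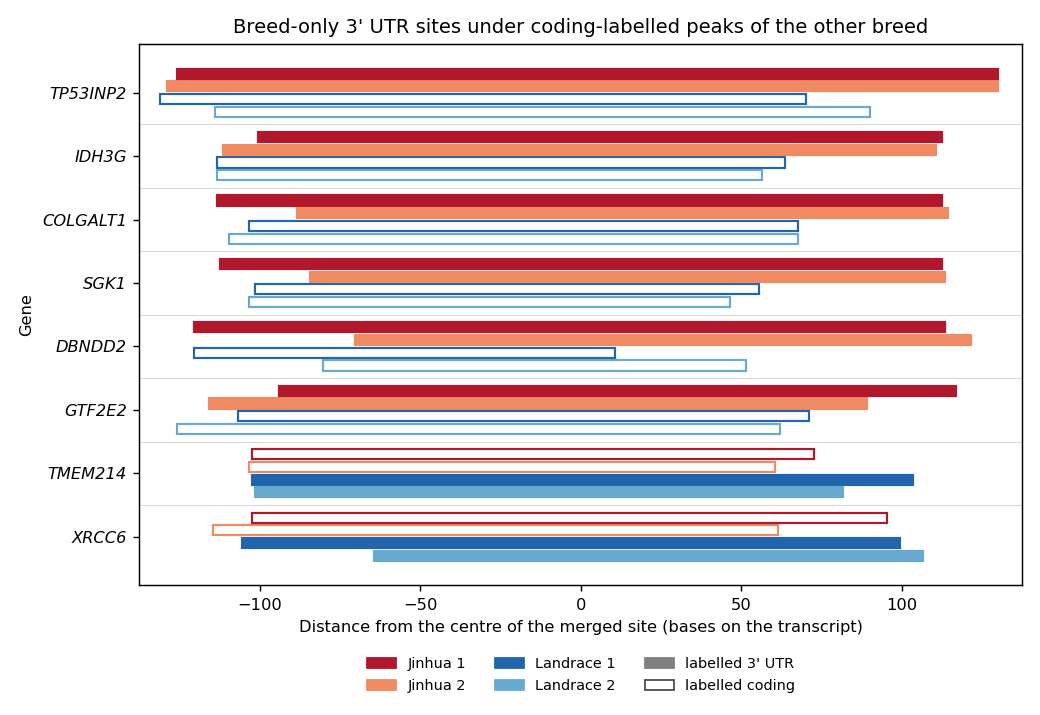
Breed-only 3' UTR sites overlapped in both lists of the other breed by a coding peak, for the genes among the 24 breed-only sites with most shared bases; filled bars are labelled 3' UTR and open bars coding, with Jinhua above Landrace. In each gene the open bars end before the filled bars, on an x axis of distance from the site's centre in transcript bases.

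At the other 97 Jinhua-only sites no Landrace peak of any part overlapped. CAMK2G (ENSSSCT00000011285), a calcium/calmodulin-dependent kinase, had a peak from 1521 to 1723 in Jinhua 1 and 1521 to 1714 in Jinhua 2. The Landrace lists gave this gene coding peaks alone, the last ending at 1270 and 1309. FKBP1A (ENSSSCT00000007865), which binds the ryanodine receptor, had Jinhua peaks from 1069 to 1224 and 1047 to 1186. Its coding peak was present in all 4 animals, at 187 to 356 and 188 to 358 in Jinhua, and 186 to 356 and 186 to 353 in Landrace. CALR (ENSSSCT00000015020), the calcium-binding chaperone calreticulin, had Jinhua peaks from 1615 to 1770 and 1664 to 1819 and a coding peak in every list. ANKRD1 (ENSSSCT00000011447), a titin-associated stress protein of muscle, had Jinhua peaks from 1448 to 1610 and 1458 to 1622. Each of these genes was called in all 4 animals, and the distal peak was listed in Jinhua alone.

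Other Jinhua-only sites lay in genes with fewer Landrace calls. ACAA2 (ENSSSCT00000004982), a thiolase of mitochondrial fatty acid oxidation, had Jinhua peaks from 1771 to 1926 and 1735 to 1890 and no Landrace peak at all. SLC25A43 (ENSSSCT00000013803) was likewise called in Jinhua alone, at 1171 to 1360 and 1161 to 1317. ACAA1 (ENSSSCT00000012317), the peroxisomal thiolase, had 3' UTR peaks from 1191 to 1310 and 1151 to 1330 in Jinhua, and in Landrace 1 a coding peak from 1081 to 1217. ZDHHC9 (ENSSSCT00000013834), a palmitoyltransferase, and AP2B1, a clathrin adaptor subunit, each held 2 Jinhua-only sites with no Landrace peak in the gene. RAPGEF2, CHST10 and CDC123 had Jinhua-only sites, not overlapped by any Landrace peak, in genes called in Landrace 1 and not in Landrace 2.

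At 40 Landrace-only sites no Jinhua peak overlapped. ALKBH5 (ENSSSCT00000024532), an m6A demethylase, had 3' UTR peaks from 2225 to 2379 and 2279 to 2433 in Landrace. The same transcript had a coding peak from 97 to 250 in all 4 lists, and a second that ended at 941 in Jinhua 1, Jinhua 2 and Landrace 1 and at 933 in Landrace 2. CALM3 (ENSSSCT00000032084), a calmodulin gene, had Jinhua 3' UTR peaks at other places, 621 to 750 in Jinhua 1 and 1731 to 1830 in Jinhua 2, and a shared Landrace site, 1092 to 1247 and 1076 to 1247. MFGE8 (ENSSSCT00000002056), a phosphatidylserine-binding secreted protein, had peaks from 1697 to 1868 and 1697 to 1878 in Landrace. CXCL14 (ENSSSCT00000015634), a chemokine, had 424 to 584 and 429 to 587 in Landrace. MFGE8 and CXCL14 had a more proximal peak in every list as well. The other leading Landrace-only sites lay in AP5S1, TMEM42, CH242-138G12.1, PIAS4, TSPAN9, GABARAPL1 and MED27, with 154 to 182 shared bases.

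A breed-only site lay beside a site of all lists in 7 genes. GABARAPL1 (ENSSSCT00000000696), an ATG8 protein of autophagosomes, had a common site covered from 261 to 453 and 320 to 491 in Jinhua, and 298 to 453 and 241 to 449 in Landrace. A second GABARAPL1 site, 793 to 946 in both animals, was in the Landrace lists alone. TEAD3 (ENSSSCT00000001722), a partner of YAP in the Hippo pathway, had a common site over 1534 to 1716 and 1533 to 1727 in Jinhua and 1532 to 1715 and 1562 to 1715 in Landrace. Its Landrace-only site, 1364 to 1517 and 1359 to 1517, lay upstream of it. HTRA1 (ENSSSCT00000011709), a secreted serine protease, had a common site and a Jinhua-only one downstream, at 2322 to 2460 and 2321 to 2460. The other genes were ASB13 and TSPAN9, with Landrace-only sites, and LHFPL2 and NTMT1, with Jinhua-only sites.

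Most genes had a single 3' UTR site. One site was found in 1306 genes, 2 in 243, 3 in 33 and 4 in 3. Peaks were in the 3' UTR alone in 607 genes (38.3%), while 916 (57.8%) also had a coding peak and 158 a 5' UTR peak. In the 279 genes with several sites, the first was in all 4 lists in 88 (31.5%) and the last in 50 (17.9%). The last site was in 1 list alone in 133 genes (47.7%) and the first in 110 (39.4%). Neighbouring sites were a median of 215.5 bases apart.

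DES showed a common site among sites of single animals, and PIK3R1 more than one common site. DES (ENSSSCT00000030104), the muscle intermediate filament desmin, had a common site from 2053 to 2218 and 2071 to 2247 in Jinhua, and 2044 to 2197 and 2045 to 2199 in Landrace. Jinhua 2 alone had another at 1834 to 2020 and Landrace 1 alone one at 1481 to 1633. PIK3R1 (ENSSSCT00000030461), the regulatory subunit of PI3 kinase, had both of its first 2 sites in all 4 lists. The first PIK3R1 site ran over 1878 to 2033 and 1830 to 2031 in Jinhua and 1878 to 2020 and 1870 to 2025 in Landrace.

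Gene groups differed in how many of their called genes held a 3' UTR site, beside 30.9% of all 5132 genes and a median of 32.9% over 30 lists. A site of all 4 lists was present in 446 genes, 8.69% of the 5132. Among mitochondrial SLC25 carriers 12 of 18 called genes had a 3' UTR site (66.7%). Of their 13 sites 6 were in all lists, 2 Jinhua-only and 0 Landrace-only. Over all 3' UTR sites 24.4% were in all lists, 6.04% Jinhua-only and 2.42% Landrace-only. SLC25A12 (ENSSSCT00000022813), an aspartate/glutamate carrier, had 1181 to 1336 and 1181 to 1337 in Jinhua and 1180 to 1336 and 1181 to 1336 in Landrace. SLC25A20 (ENSSSCT00000012444), the carnitine-acylcarnitine carrier, had 949 to 1106 and 951 to 1113 in Jinhua and 951 to 1083 and 955 to 1110 in Landrace. Starts lay within 6 bases of each other over the 4 lists in both carriers. At the other extreme, 1 of 44 cytosolic ribosomal protein genes had a site, and 9 of 60 zinc finger and BTB transcription factor genes (15%).

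Fatty acid oxidation genes had sites in 14 of 29 called genes (48.3%). Of their 17 sites 6 were in all lists and 2 Jinhua-only, in ACAA1 and ACAA2, beside 24.4% and 6.04% of all 3' UTR sites. HADHA (ENSSSCT00000009377), a subunit of the mitochondrial trifunctional protein, had 2359 to 2512 in both Jinhua animals, and 2351 to 2504 and 2352 to 2504 in Landrace. Its Jinhua peak thus ended 8 bases past the Landrace peak. PPARD (ENSSSCT00000001714), a nuclear receptor that induces oxidation genes, had 1562 to 1767 and 1567 to 1776 in Jinhua, and 1534 to 1763 and 1548 to 1763 in Landrace. ACADS (ENSSSCT00000010866), short-chain acyl-CoA dehydrogenase, had 1376 to 1577 and 1410 to 1582 in Jinhua, and 1366 to 1548 and 1366 to 1533 in Landrace. HADHB had a site in 1 animal.

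Of 11 called lipid droplet and lipolysis genes 4 had a site, and 2 were in all lists. CIDEC (ENSSSCT00000012648), a lipid droplet protein of adipocytes, had 741 to 948 and 755 to 950 in Jinhua, and 741 to 906 and 781 to 939 in Landrace. G0S2 (ENSSSCT00000017011), an inhibitor of adipose triglyceride lipase, had 399 to 589 and 436 to 580 in Jinhua, and 377 to 537 and 378 to 539 in Landrace. Both Jinhua ends lay past both Landrace ends in CIDEC and G0S2, an order found at 35.9% of the 465 3' UTR sites of all lists. Adipogenesis regulators had sites in 7 of 20 called genes, with 3 in all lists, in KLF9, NR1H3 and ADIPOR2, and the Landrace-only label in CEBPD. Uptake, activation and lipogenesis genes had sites in 8 of 19, with SCAP and ELOVL1 in all lists and the Landrace-only label in AGPAT2.

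Among sarcomere and Z-disc genes 8 of 37 called genes had one (21.6%), and of their 12 sites 5 were in all lists. TMOD1 (ENSSSCT00000027470), which caps thin filaments, had 998 to 1182 and 972 to 1181 in Jinhua, and 977 to 1173 and 1018 to 1180 in Landrace. In excitation-contraction coupling 8 of 25 called genes had a site. Of their 10 sites 4 were in all lists, 3 Jinhua-only (CALR, CAMK2G and FKBP1A) and 1 Landrace-only (CALM3). Over all 3' UTR sites 24.4% were in all lists, and the breed-only shares were 6.04% for Jinhua and 2.42% for Landrace. CACNG1 (ENSSSCT00000018801), a subunit of the muscle calcium channel, had 784 to 950 and 791 to 946 in Jinhua, and 782 to 937 and 783 to 944 in Landrace. STAC3 (ENSSSCT00000032101), an adaptor of that channel, had 1334 to 1511 and 1339 to 1505 in Jinhua, and 1320 to 1492 and 1326 to 1500 in Landrace. Myogenic and atrophy regulators had sites in 11 of 26, among them common ones in TEAD3, HDAC4 and ESRRA. Glycogen and glycolysis genes had sites in 12 of 33, and none of those 12 sites was breed-only.

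**Figure D5:**
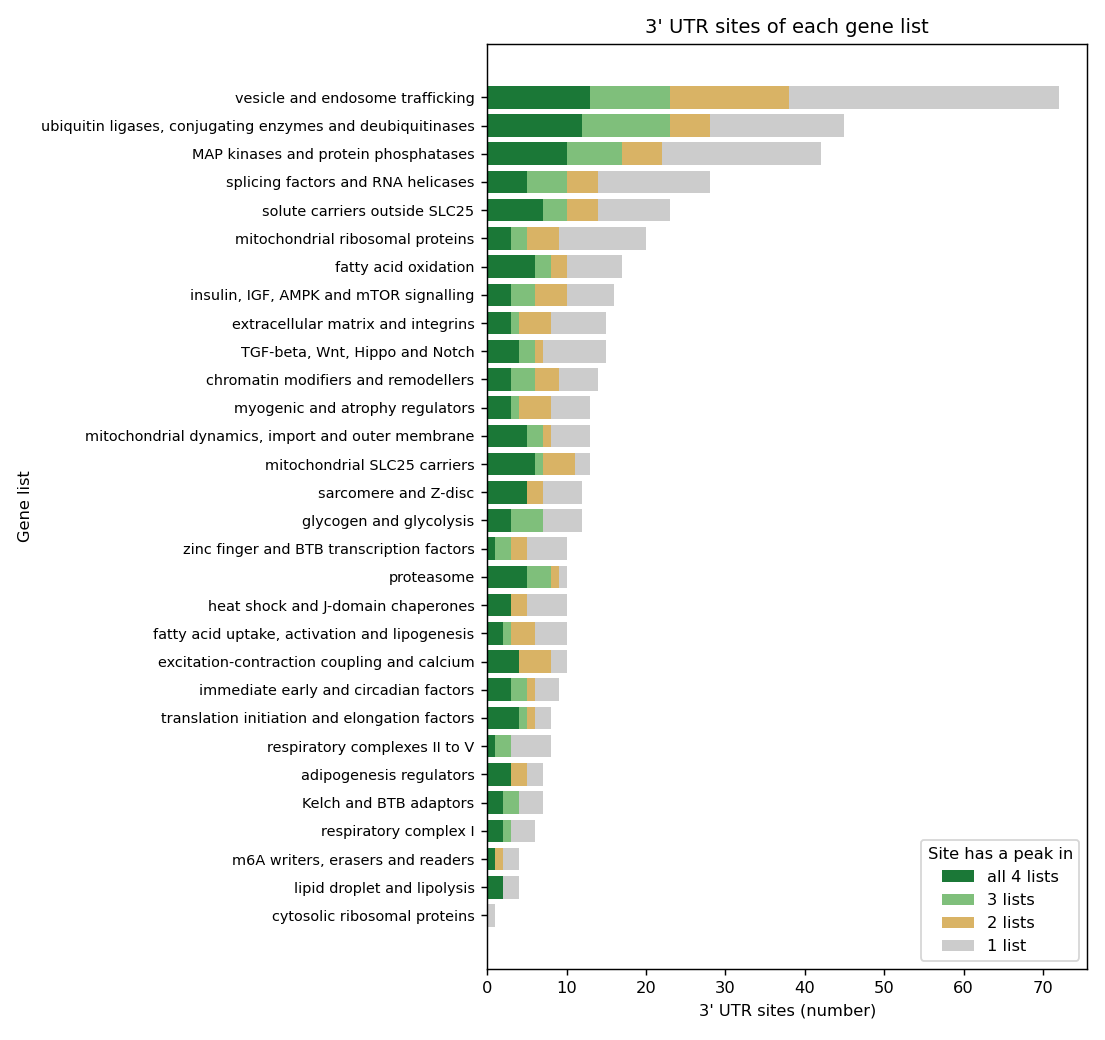
Number of 3' UTR sites in each of 30 gene lists, coloured by how many of the 4 animals' lists share the site. Vesicle and endosome trafficking holds most (72 sites, 13 in all lists) and cytosolic ribosomal proteins the fewest (1 site).

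The lists with most sites were large ones. Vesicle and endosome trafficking had 72 sites in 59 of 133 called genes (44.4%), of which 13 were in all lists, 4 Jinhua-only and 2 Landrace-only. Ubiquitin ligases, conjugating enzymes and deubiquitinases had 45 sites in 37 of 107 genes, with 12 in all lists, 0 Jinhua-only and 1 Landrace-only. MAP kinases and protein phosphatases had 42 sites in 32 of 89, with 10 in all lists. RNF157 (ENSSSCT00000018711), a RING ubiquitin ligase, had a pair of common sites, the second over 2259 to 2439 in both Jinhua animals, and 2264 to 2440 and 2276 to 2440 in Landrace. DUSP26 (ENSSSCT00000017243), a phosphatase of MAP kinases, had 613 to 806 in both Jinhua lists, and 613 to 806 and 612 to 806 in Landrace. Proteasome genes had 10 sites in 10 of 31 genes, of which 5 were in all lists. Mitochondrial ribosomal proteins had 20 sites in 17 of 43 genes, of which 3 were in all lists. For every list in this paragraph, the shares over all 3' UTR sites were 24.4% in all lists, 6.04% Jinhua-only and 2.42% Landrace-only.

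Nuclear and signalling lists filled out the range. Splicing factors and RNA helicases had sites in 27 of 118 called genes, chromatin modifiers in 13 of 70, and translation factors in 8 of 36. Extracellular matrix and integrin genes had them in 14 of 62, and chaperones in 9 of 49. Respiratory complex I had sites in 6 of 30 genes and complexes II to V in 6 of 31, below the 30.9% of all genes. Insulin, IGF, AMPK and mTOR signalling had 12 of 31, the TGF-beta, Wnt, Hippo and Notch list 12 of 37, and immediate early and circadian factors 7 of 28. Kelch and BTB adaptors had 7 of 23, and solute carriers outside SLC25 had 17 of 45. BTG2, JUNB and TSC22D3 held the immediate early sites of all lists, and HEYL, NOTCH3, HES1 and CTNNB1 those of the developmental pathways.

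Among mitochondrial dynamics, import and outer membrane genes 12 of 26 had a site (46.2%). Of their 13 sites 5 were in all lists, beside 24.4% of all 3' UTR sites. BNIP3 (ENSSSCT00000030128), a mitophagy receptor, had 1235 to 1398 and 1235 to 1397 in Jinhua, and 1236 to 1392 in both Landrace animals. VDAC1 (ENSSSCT00000015619), the outer membrane channel, had 1131 to 1437 and 1131 to 1438 in Jinhua, and 1270 to 1437 and 1272 to 1437 in Landrace. Each Jinhua range in VDAC1 joined 2 adjoining peaks, of which the second, 1258 to 1437 and 1272 to 1438, lay at the place of the single Landrace peak, and the first was listed in Jinhua alone. FUNDC2 (ENSSSCT00000014010) had 660 to 855 and 631 to 856 in Jinhua, and 661 to 858 and 663 to 857 in Landrace. TIMM8A (ENSSSCT00000013661), an import chaperone, had a Jinhua-only site at 581 to 680 and 536 to 700.

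The m6A machinery list had sites in 3 of 9 called genes. PCIF1 (ENSSSCT00000008136), the cap-adjacent adenosine methyltransferase, had peaks over 2590 to 2918 and 2596 to 2750 in Jinhua, and 2588 to 2749 and 2595 to 2748 in Landrace. A second PCIF1 site, 3031 to 3149, was in Landrace 1 alone. HNRNPC (ENSSSCT00000023644), an RNA-binding protein, had a 3' UTR peak from 1101 to 1200 in Jinhua 2, where the other 3 lists had coding peaks that ended at 1120 to 1129.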

How the data were processed

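The deposited values are transcript positions and peak numbers, per the file headers, with 1 list per animal. Per the labels' protocols, mRNA was purified, sonicated and precipitated with an m6A antibody, and libraries were stranded. Per the submitters' processing notes, TopHat2 2.0.14 and the builds susScr3 and Sscrofa10.2 are named. The gene models, peak caller and cut-off were not given in the sources used here. Depth is unknown. Positions are 1-based on the Ensembl transcript, and genome coordinates and the sequence under sites were not used here. Symbols came from the lists, and for 139 of the 1585 genes from a gene name table; 130 genes stayed unnamed. Genes with more than 3 peaks in a list (518 of 5650) were left out by the rule. In 2 of the lists the annotated part stops at the third peak of a gene.

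Peaks were merged by overlap or direct adjoining. Breeds were compared by exact permutation, and 3' UTR with coding peaks by exact sign flips over 4 animals. Shares have 95% Wilson intervals. Python 3.11.15, NumPy 2.4.6 and SciPy 1.17.1 were used. The steps were tested on simulated data. The sites, lists and tests were chosen with earlier results of these data known. The text names the 15 sites of all lists and the 12 Jinhua-only and 12 Landrace-only sites with most shared bases, genes with 3 or more sites (up to 10), the 6 longest sites, up to 4 members of each gene list, genes with a breed-only site beside a common one, and the 6 sites with the closest and the 6 with the widest starts. Genes given beyond these, such as HADHB and the markers, were chosen after their values were seen. The labels describe separate animals, and their shared replicate numbers name no shared source. A few of the genes named by these rules have no values reported here. Alternatives are given in the closing section.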

Additional observations from a re-analysis of the deposited data

Results flagged for a closer look

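A total of 140 peaks were labelled UTR with no side given. They formed 68 sites in 49 genes, with 13 of the sites in all 4 lists. They counted among all peaks, sites of every part and peaks of another part, and were not compared on their own. Genes with more than 3 peaks in a list held a further 1171 peaks labelled 3' UTR among their first 3 entries, which the rule left out. Just inside the limit, 692 genes had exactly 3 peaks in the list that gave them most, and 382 of these held a 3' UTR site. Just outside it, 290 genes had exactly 4 in such a list, and 153 of these had a 3' UTR peak among the first 3 entries.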

How the results depend on the processing

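Genes with at most 2 peaks gave 292 sites of all lists, against 465, and genes with at most 1 peak gave 623 sites, 101 of all lists, 38 Jinhua-only and 12 Landrace-only. Genes with a peak in all 4 lists, a limit added after the data had been seen, gave 1011 sites. Among them were the same 33 Jinhua-only and 24 Landrace-only sites already counted by gene calls. These settings test fewer genes. Without 1 animal, where fewer lists have to meet the definition, Jinhua-only sites ranged over 189 to 423 and Landrace-only sites over 82 to 187. The share difference was -0.355 to 3.51 points without 1 animal, and negative without Jinhua 1. The recurrence difference reversed to -0.927 and -2.41 points at limits of 2 and 1 peaks, and the cause was not tested. With animals paired by number as a replicate block the share difference was 1.58 points (exact sign-flip permutation p = 1). Merging peaks of every part gave 564 sites of all lists, 107 Jinhua-only and 48 Landrace-only. The merging rule does not enter the share, Jaccard or width results, and no peak was under 100 bases. Depth is unknown, so absence of a peak does not show absence of m6A.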

Other observations

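Peak edges and widths of 3' UTR peaks were not spread evenly. Of 4372 peaks, 1796 (41.1%) started at a base number ending in 1 and 1630 (37.3%) ended at one ending in 0. Exactly 100 bases was the width of 345 peaks (7.89%), and 1198 were 150 to 160 bases wide. Peaks of 100 bases lay in sites of all 4 lists in 19.7% and in sites of 1 list in 40.9%. Peaks of over 100 and under 150 bases did so in 22.9% and 32.4%. Those of 150 to 160 bases did so in 48.7% and 15.2%, and wider ones in 58.5% and 8.04%. Over all 3' UTR peaks the values were 45.0% and 17.9%. Wider peaks can meet the overlap rule more easily, and the part of width in these shares was not tested. Leaving out peaks under 150 bases, a limit added after the data had been seen, gave 1345 sites, 326 of them in all lists, 98 Jinhua-only and 37 Landrace-only.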
